A study of Mus musculus with 19 samples.

Results

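Protocadherins are cell adhesion molecules of the cadherin superfamily with which neurons tell their own branches from those of other cells, sort into circuits and build synapses. The set described here is every protein-coding gene whose symbol begins with Pcdh, which gave 69 of the 55487 genes listed. The clustered members stand in 3 tandem arrays on mouse chromosome 18: 14 Pcdha genes between positions 36930184 and 37187661, 22 Pcdhb genes between 37264938 and 37524479, and 21 Pcdhg genes between 37661793 and 37841873 (GRCm38). The other 12 are single, non-clustered genes on chromosomes 3, 5, 10, 14, 18 and X. Pcdhgb8, a polymorphic pseudogene by annotation, falls outside the rule.

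RNA sequencing was available from 19 mouse libraries. Snap-frozen spinal cords of miR-146a KO mice gave 9 libraries and cords of wild-type (WT) mice gave 4. Motor neurons made from wild-type RW.4 mouse embryonic stem cells (mESC) with retinoic acid and the Sonic hedgehog agonist SAG gave 3 libraries after a miR-146a locked nucleic acid (LNA), a short modified oligonucleotide that blocks a microRNA, and 3 after a control LNA. Both LNAs were transfected at 10 nM with Lipofectamine 2000 and left for 72 h, so every culture had been transfected. The labels name no KO allele, sex, age, litter or batch for the cords, nor whether the replicates were different mice or different differentiations, so p-values measure the spread between these libraries, which may be technical. The RW.4 cultures are 1 cell line.

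Each neuron switches on a small, partly random choice of the clustered genes. A promoter in front of each variable exon is chosen with the help of CTCF and cohesin, and in Pcdha and Pcdhg the chosen exon is spliced to constant exons that all members of that cluster share. Members named with a C (Pcdhac1, Pcdhac2, Pcdhgc3 to Pcdhgc5) are used more evenly between cells. The proteins bind like to like across membranes, and in mice the Pcdhg cluster is needed for the survival of spinal interneurons. Most non-clustered members are delta protocadherins, whose delta-1 branch holds Pcdh1, Pcdh7, Pcdh9 and Pcdh11x and whose delta-2 branch holds Pcdh8, Pcdh10, Pcdh17, Pcdh18 and Pcdh19. miR-146a is best known as a brake on NF-kB signalling in inflammation, and a microRNA lowers transcripts that pair with its seed.

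The mature miR-146a is shown first because its seed defines which protocadherin transcripts carry a match, and the stretches of 2 members that carry one, Pcdh7 and Pcdh15, are shown beneath it. The microRNA comes from RefSeq (GRCm38.p6, chr11:43374435-43374456, minus strand) with bases 2 to 8, the seed, in capitals. The target stretches come from 3′ untranslated regions (UTRs) of GENCODE M21 transcripts on GRCm38, plus strand, with the complement of the seed in capitals, at chr5:58130498-58130504 in Pcdh7 and at chr10:74507123-74507129 in Pcdh15.
mmu-miR-146a-5p: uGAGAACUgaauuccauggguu
Pcdh7: atgatttcatgAGTTCTCctattgtcatt
Pcdh15: gaaagatgataAGTTCTCtatacaaatat

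A match to these 7 letters, searched as AGTTCTC on the transcript strand, was present in the annotated 3′ UTR of 7 of 69 protocadherins (10.14%) and of 2497 of 21000 protein-coding genes (11.89%). Beside Pcdh7 and Pcdh15 the members with a match were Pcdh1, Pcdhb7, Pcdhb11, Pcdhb14, with 3 matches, and Pcdhb16. None of the 14 Pcdha and none of the 21 Pcdhg genes had one, and the members of each of these clusters share one 3′ UTR, so each cluster counts as a single case. The pooled 10.14% counts them gene by gene. The share was 18.18% in Pcdhb (4 of 22) and 25% in the non-clustered genes (3 of 12). The median longest 3′ UTR was 1744 bases in protocadherins, 1214 in Pcdhb, 3772 in non-clustered genes and 961 in all protein-coding genes. Pcdh18, Pcdh9 and Pcdh11x, which had the largest log2 fold changes of the members called in cultures, had none in the annotated UTR.

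What a count could see differed between clusters, and it bears on every value below. Reads were counted only where they fell unambiguously into 1 gene, per the submitters' design notes. The 14 Pcdha genes share 2860 exonic bases in 3 blocks, and the 21 Pcdhg genes share 2116 bases in 3 blocks. A median of 46.4% of the exonic bases of a Pcdha gene and 54.8% of those of a Pcdhg gene belonged to that gene alone, against 19 of 22 Pcdhb genes and 9 of 12 non-clustered genes whose exons were wholly their own. A Pcdha or Pcdhg count therefore reads the variable exon, and the shared constant exons add nothing to it.

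Strand was not used in the counting. Among genes with at least 1000 bases of their own on their strand but none once strand is ignored, 47 of 47 had 0 counts in all 19 libraries. Pcdhga10, whose variable exon lies opposite an antisense gene, is one of them and had 0 counts. Pcdha4 had 30 counts over all libraries with 7% of its exonic bases its own, and the gene ENSMUSG00000102206, listed as Pcdha11, had 63. A second gene, ENSMUSG00000007440, carries the symbol Pcdha11 too and was measured with 6670 counts. Pcdh7 lost part of its sequence to an overlapping gene on the other strand, and 78.9% of its exonic bases were its own.

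In cords 66 of 69 members passed the filter on low counts, all but Pcdha4, Pcdhga10 and ENSMUSG00000102206. In cultures 65 passed, because Pcdh12 was also left out. The cord libraries held 28163289 to 39577247 counts each, and the culture libraries 40647549 to 65471742. Levels are given as normalised CPM, counts brought to a common library size after trimmed-mean (TMM) scaling. A gene was called when its adjusted p (edgeR quasi-likelihood test, Benjamini-Hochberg over all tested genes) was below 0.05. Mir146, the gene of the miR-146a precursor, had 1 count over all 19 libraries, in KO replicate 5, so these libraries of longer RNA fragments do not check the KO or LNA labels.

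In motor neuron cultures the miR-146a LNA was followed by lower levels of the delta-1 protocadherins and a higher level of Pcdh18. Of 65 members tested, 9 were called, 1 higher and 8 lower, where 8.56% of all genes tested were called, 2.4% higher and 6.16% lower. Non-clustered genes made up most of them: 6 of 11 non-clustered members were called, against 3 of 54 clustered members. Depth differed between these sets. Over the control cultures the 6 had 1385 (Pcdh18) to 38317 (Pcdh11x) counts, and tested clustered members 65 (Pcdhgc5) to 10696 (Pcdhb11). Pcdhb15 (log2 fold change -0.74, 198 control counts) and Pcdhga1 (-0.52, 359 control counts), named here for their depth, were not called. The part of depth in this contrast was not tested. All 4 delta-1 members fell, with log2 fold changes between -0.69 and -0.44. Of the 5 delta-2 members Pcdh18 rose, Pcdh8 fell and 3 were not called. At an unadjusted p under 0.05 there were 20 members, 1 higher and 19 lower, where 22.9% of all genes tested passed, 9.81% higher and 13.1% lower. DESeq2 called 14 members, the same 9 and also Pcdhb16, Pcdhga3, Pcdhga5, Pcdhgc4 and Pcdh15, all lower and, but for Pcdh15, named for this call alone, where it called 14.4% of all genes it could adjust.

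Pcdh11x, an X-linked delta-1 protocadherin, had 134, 148 and 145 normalised CPM with the miR-146a LNA, against 249, 228 and 213 with the control LNA. All LNA cultures lay below all control cultures. The log2 fold change was -0.69 (SE 0.06, edgeR adjusted p = 3.11e-06).

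Pcdh9, a delta-1 member expressed widely in the nervous system, had 81.0, 72.4 and 81.3 normalised CPM with the miR-146a LNA, against 114, 134 and 124 with the control LNA. The groups did not overlap, and the log2 fold change was -0.67 (SE 0.07, edgeR adjusted p = 1.16e-05). Pcdh7, known in frogs as NF-protocadherin and needed there for retinal axons to grow, had 126, 155 and 149 normalised CPM with the miR-146a LNA, against 210, 202 and 190 with the control LNA. Its log2 fold change was -0.48 (SE 0.07, edgeR adjusted p = 0.000335), again with no overlap. Pcdh7 is one of the 2 members whose seed matches are printed above.

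Pcdh1, the remaining delta-1 member and in humans a gene linked to airway disease, had 12.7, 16.5 and 12.9 normalised CPM with the miR-146a LNA, against 17.95, 22.1 and 17.3 with the control LNA. It fell by 0.44 on the log2 scale (SE 0.12, edgeR adjusted p = 0.0288). The call was lost without LNA replicate 1 (adjusted p = 0.108), without LNA replicate 3 (0.0777) and without control replicate 2 (0.197).

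Pcdh18, a delta-2 protocadherin reported in mice to bind the adaptor Dab1, moved the other way. It had 18.3, 19.2 and 16.9 normalised CPM with the miR-146a LNA, against 9.72, 8.63 and 6.45 with the control LNA. Each LNA culture was above each control culture, and the log2 fold change was 1.13 (SE 0.13, edgeR adjusted p = 4.04e-05). Its raw counts were 752, 1272 and 1050 with the miR-146a LNA, against 578, 471 and 336 with the control LNA.

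Pcdh8, an activity-regulated delta-2 member known in rats as arcadlin, had 19.5, 19.5 and 19.8 normalised CPM with the miR-146a LNA, against 25.7, 24.6 and 24.1 with the control LNA. It fell by 0.34 on the log2 scale (SE 0.08, edgeR adjusted p = 0.0113). The call was lost without control replicate 1 (adjusted p = 0.0605) and without control replicate 2 (0.0558).

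**Figure D1:**
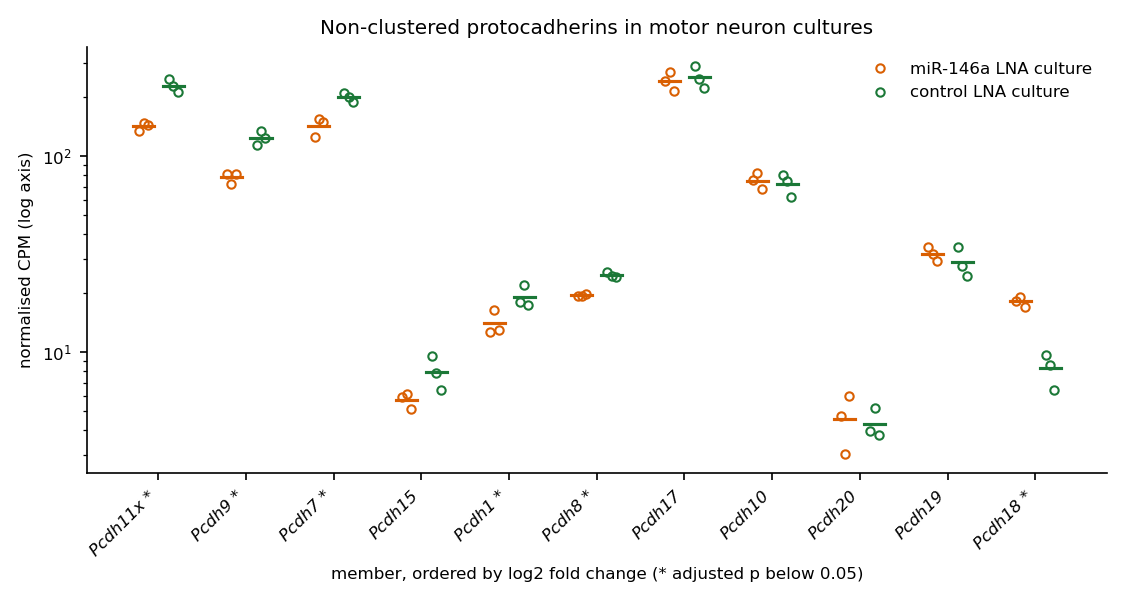
Normalised CPM (log axis) of the 11 non-clustered protocadherins tested in motor neuron cultures. Each circle is 1 library, miR-146a LNA left of control LNA, bars are means of 3, and an asterisk marks an adjusted p below 0.05; the 5 called members that fell and Pcdh18, which rose, show no overlap between groups.

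The other 5 non-clustered members tested were not called by edgeR. Pcdh15, a hair cell tip link protein, had 5.94, 6.11 and 5.11 normalised CPM with the miR-146a LNA and 9.54, 7.86 and 6.45 with the control LNA, a log2 fold change of -0.48 (SE 0.16, edgeR adjusted p = 0.0714). Pcdh17, which recruits the actin-regulating WAVE complex, averaged 242 ± 27.5 and 253 ± 32.8 normalised CPM in LNA and control cultures (SD, n = 3 each). Pcdh10, another delta-2 member that binds the same complex, averaged 75.2 ± 7.26 in LNA and 72.3 ± 9.48 in control cultures. Pcdh19, X-linked and in humans a gene of epilepsy, averaged 31.8 ± 2.64 and 28.9 ± 5.12, and Pcdh20 averaged 4.57 ± 1.47 and 4.31 ± 0.75, LNA cultures first in both. Pcdh12, an endothelial protocadherin, had 2 to 7 counts in each culture and was not tested.

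The called members differed in how much genome they span. Pcdh9 spans 877 kb, Pcdh11x 620 kb and Pcdh7 415 kb, whereas Pcdh1 spans 26.1 kb, Pcdh8 4.54 kb and Pcdh18, the one that rose, 14.03 kb. Of the called clustered members Pcdha1 spans 257 kb, Pcdha3 242 kb and Pcdhb11 4.42 kb, and all of them fell. The longest member, Pcdh15, spans 1550 kb and had a log2 fold change of -0.48. It was not called by edgeR (adjusted p = 0.0714) but was by DESeq2 (adjusted p = 0.0361). The part of gene length in these changes was not tested.

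Among the clustered genes in cultures, 3 of 54 were called, all lower. Pcdha3 had 19.01, 22.0 and 18.7 normalised CPM with the miR-146a LNA, against 28.6, 26.5 and 26.1 with the control LNA (log2 fold change -0.44, SE 0.09, edgeR adjusted p = 0.0035). Pcdha1 had 21.7, 25.5 and 22.5 with the miR-146a LNA, against 29.5, 30.5 and 30.7 with the control LNA (-0.38, SE 0.08, adjusted p = 0.00643). Both are variable members at the upstream end of the Pcdha cluster, and their groups did not overlap.

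Pcdhb11 carries a seed match and was the Pcdhb gene with the highest level per length in control cultures. It had 54.0, 56.2 and 51.1 normalised CPM with the miR-146a LNA, against 62.4, 65.5 and 65.4 with the control LNA, a fall of 0.26 on the log2 scale (SE 0.06, edgeR adjusted p = 0.014). The call was lost without control replicate 2 (adjusted p = 0.0895) and without control replicate 3 (0.0628). No Pcdhg gene was called. Pcdhga7, the Pcdhg gene with the highest level per length there, had 20.7, 26.0 and 21.2 normalised CPM with the miR-146a LNA and 27.0, 25.5 and 25.2 with the control LNA, and these overlapped.

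Most fold changes in cultures were below 0. The fold change was negative for 50 of 65 members and positive for 15, where 51.5% of all genes tested were positive. The median log2 fold change was -0.17 over the 65 members and 0.01 over all genes tested. The median was -0.11 in Pcdha, -0.13 in Pcdhb, -0.19 in Pcdhg and -0.34 in the non-clustered genes. In 21 members every LNA culture was below every control culture (15.1% of all genes), and in 2 members, Pcdh18 and Pcdhb12, every LNA culture was above (12.8% of all genes). The negative share ranged from 46 to 53 members on leaving out 1 library in turn. It was 50 or 51 with every other scaling, filter and test run.

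Summed over its members, each group was lower in all LNA cultures than in all control cultures. Pcdha summed to 142 ± 8.9 normalised CPM with the miR-146a LNA and 161 ± 4.79 with the control LNA (SD, n = 3 each). Pcdhb summed to 353 ± 13.6 with the miR-146a LNA and 396 ± 7.7 with the control LNA. Pcdhg summed to 141 ± 12.8 with the miR-146a LNA and 162 ± 3.26 with the control LNA. The non-clustered genes summed to 775 ± 41.6 with the miR-146a LNA and 973 ± 74.6 with the control LNA. Sums over chosen members get no test.

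**Figure D2:**
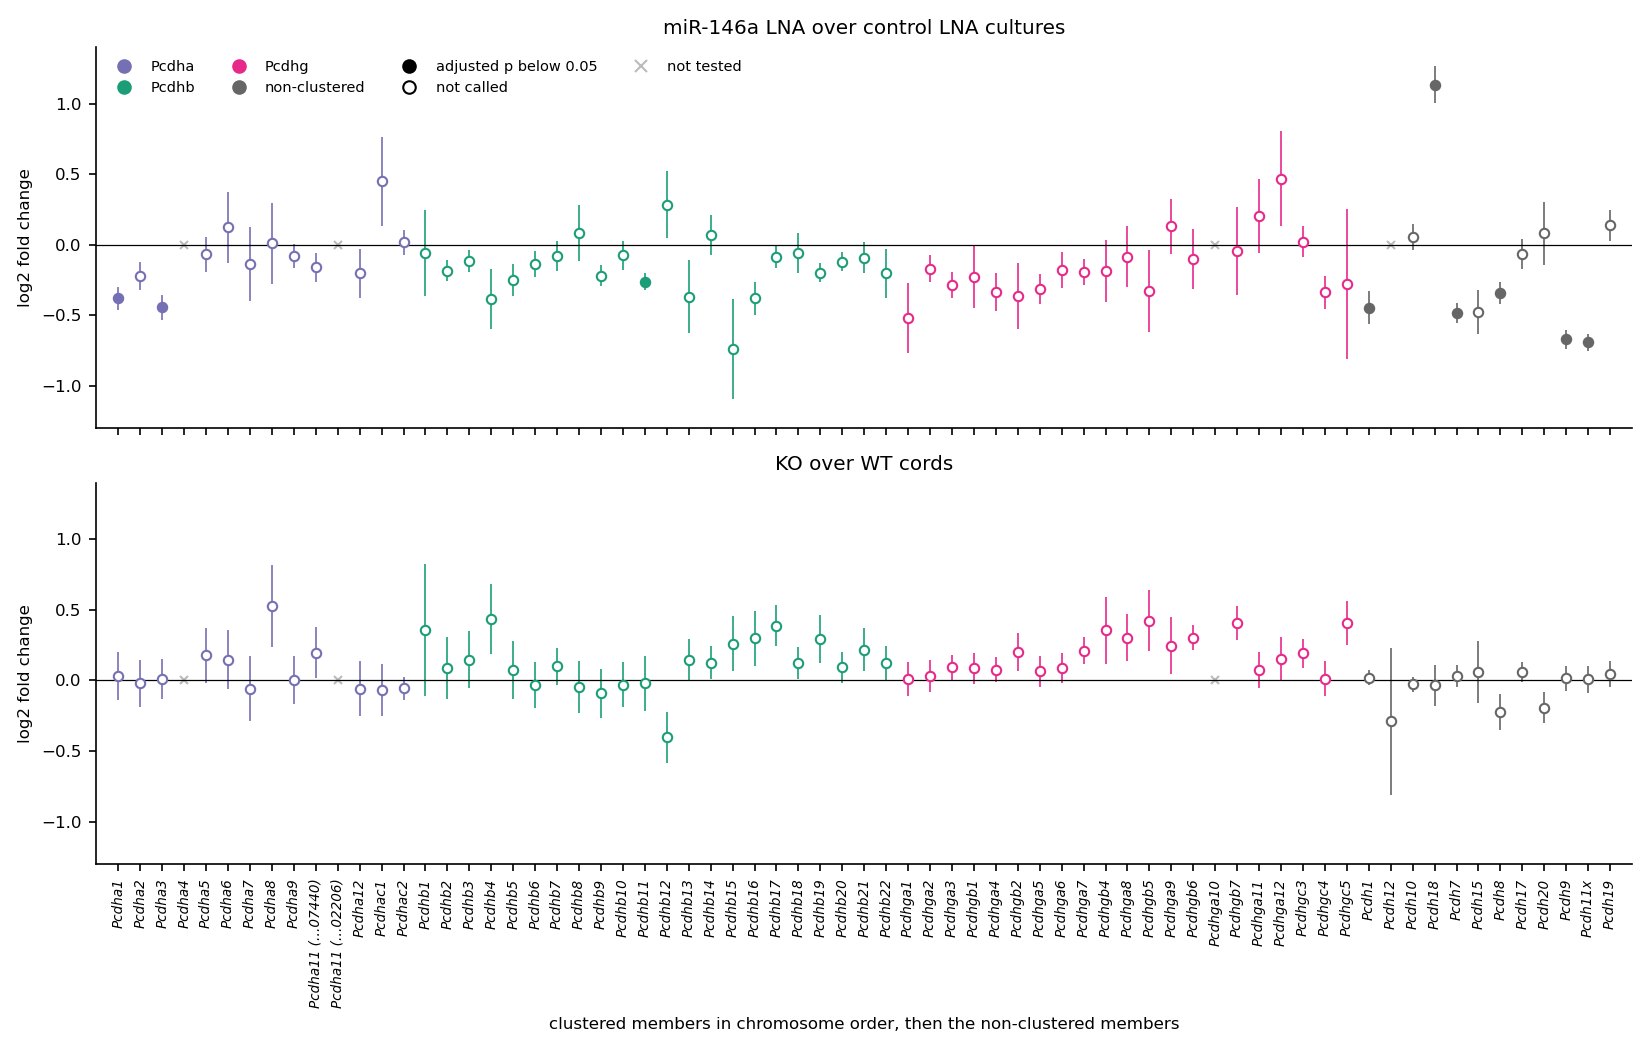
Log2 fold change of each protocadherin, with bars of 1 standard error, for miR-146a LNA over control LNA cultures (upper panel, 3 against 3 libraries) and KO over WT cords (lower panel, 9 against 4). Filled points have an adjusted p below 0.05 and crosses were not tested; 9 points are filled in cultures and none in cords, where all 20 tested Pcdhg genes lie above 0.

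Of the 7 members with a seed match, all but Pcdhb14 had a negative fold change in cultures, beside 50 of all 65 members tested. Pcdh1, Pcdh7 and Pcdhb11 fell, as given above. Pcdh15 had a log2 fold change of -0.48, Pcdhb16 of -0.38, Pcdhb7 of -0.08 and Pcdhb14 of 0.07, and none of these 4 was called by edgeR. The last 3 are named here for their matches, outside the rule for named genes. The part of the matches in these changes was not tested.

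Some marker genes also differed between the cultures, where 8.56% of all genes tested were called, 2.4% higher and 6.16% lower. The 7 motor neuron markers were high in every culture and summed to 2971 to 3139 normalised CPM with the miR-146a LNA, against 2949 to 3046 with the control LNA; Isl1 and Chodl rose. The 8 interneuron markers summed to 62.3 to 66.3 with the miR-146a LNA, against 69.1 to 86.0 with the control LNA, and 3 of 7 tested, Gad1, Gad2 and Slc6a5, fell. The 5 neural progenitor markers summed to 66.6 to 78.9 with the miR-146a LNA, against 51.7 to 60.5 with the control LNA, and 1 of 5, Nes, rose.

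In pericyte and fibroblast markers Dcn rose, 1 of 4 tested, and the 5 genes of that list summed to 5.14 to 6.34 with the miR-146a LNA, against 2.24 to 5.24 with the control LNA. Pdgfra rose among 3 markers of oligodendrocyte precursors and Top2a among 3 of the cell cycle, while Syt1 and Map2 fell among 6 pan-neuronal markers. These are single genes of short lists, beside 2.4% of all genes tested called higher and 6.16% called lower. Microglial markers were near 0, with C1qa at 0 counts in every culture. In a bulk library fewer cells of a type and less RNA per cell cannot be told apart, and the part of these shifts in the protocadherin changes was not tested.

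Among genes that act with protocadherins and genes of classical cadherin adhesion, the cultures showed lower levels of several adhesion and actin regulators. Of 80 tested genes in 7 lists, 15 were called, 3 higher and 12 lower. That was 18.75% of them, beside 8.56% of all genes tested (2.4% higher, 6.16% lower). The count includes classical cadherins (2 higher and 3 lower of 17) and catenins (2 lower of 6), listed as related adhesion genes. It is therefore not a share of protocadherin partners alone. In the list for promoter choice in the clusters 1 of 22 was called: Tet3, which oxidises methylated cytosine, fell by 0.34 on the log2 scale (SE 0.06, edgeR adjusted p = 0.002). Ctcf, the DNA-binding protein that loops promoters to enhancers and is named here outside the rule, averaged 65.3 with the miR-146a LNA and 56.6 normalised CPM with the control LNA (adjusted p = 0.074).

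In the WAVE complex, which several delta protocadherins recruit to actin, 3 of 10 fell: Nckap1 by 0.25, Wasf3 by 0.29 and the haematopoietic subunit Nckap1l by 1.03 on the log2 scale, the last at 2.93 normalised CPM with the miR-146a LNA and 5.96 with the control LNA. Of 11 kinases and adaptors 3 fell: Ret, the receptor tyrosine kinase reported to phosphorylate clustered protocadherins, by 0.30, Fyn, a Src-family kinase that binds Pcdha proteins, by 0.22, and Fmnl2, a formin, by 0.52. No gene was called among 8 proteases that cut protocadherins, where Psenen (log2 fold change 0.20) and Adam10 (-0.12) had the smallest p. Of 6 hair cell partners of Pcdh15, Lhfpl5 rose by 0.65 on the log2 scale at 5.79 normalised CPM with the miR-146a LNA and 3.69 with the control LNA.

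The classical cadherins moved both ways, 2 higher and 3 lower of 17. Cdh9 rose by 0.70 and Cdh10 by 0.34, both type II cadherins. Cdh13, a cadherin without a cytoplasmic part, fell by 0.52, Cdh4 by 0.44 and Cdh18 by 0.35. Of 6 catenins, which link cadherins to the cytoskeleton, the neuronal Ctnna2 fell by 0.42 and Ctnnd2 by 0.40. Every fold change of the called genes in these lists had an edgeR adjusted p below 0.05, the weakest being Wasf3 at 0.0461.

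Before the cords, the libraries that stood apart need an account. KO replicate 9 was the highest or lowest of the 13 cords for 37 of 66 protocadherins (56.1%), against 41.5% of all genes tested. KO replicate 7, the other cord that stood apart, was so for 24 of 66 (36.4%) against 39.9% of all genes. It was the lowest cord for 9 of 12 Pcdha genes, against 4228 of 22174 genes tested, and summed Pcdha was 83.3 normalised CPM there. It was at an end for 7 of 12 non-clustered genes (58.3%). Without KO replicate 7, 10 of 12 Pcdha genes had a positive KO over WT fold change, against 7 of 12 with it. Each remaining cord was at an end for 7.04% to 16.5% of all genes. KO replicate 9 also had the lowest total count of the cords.

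In KO replicate 9 the clustered genes followed their position. Set against the mean of KO replicates 1 to 8, all of the first 14 Pcdhb genes were lower, at 0.28 to 0.99 of that mean, and all of the last 8 were higher, at 1.30 to 1.97 times it. The last 8 genes took 59.0% of the summed Pcdhb level in KO replicate 9, 34.7% to 46.2% in the other 8 KO cords and 37.4% to 42.4% in the WT cords. These 2 blocks were chosen after seeing the values. Pcdhb1 had 0.14 normalised CPM in KO replicate 9 and 0.16 to 0.80 in the other KO cords, and Pcdhb2 had 3.64 against 6.73 to 11.3. Pcdhb16 had 18.01 in KO replicate 9 and 7.82 to 11.01 in the others.

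In Pcdha the genes from Pcdha5 to Pcdhac1 were raised in that library. Pcdha8 had 5.41 normalised CPM in KO replicate 9 and 1.41 to 2.71 in the other 8 KO cords, 2.46 times their mean. Pcdhac1 had 12.2 in KO replicate 9 and 5.32 to 7.14 in the others, 1.93 times their mean. The cluster's ends, Pcdha1 at 1.00 and Pcdhac2 at 1.01 times the mean, were not. In Pcdhg, Pcdhgb4 had 25.8 in KO replicate 9 and 9.16 to 13.6 in the others. Among non-clustered genes Pcdh15 stood out, at 67.3 normalised CPM in KO replicate 9 and 25.5 to 31.5 in the other KO cords. KO replicate 9 was the highest of the 13 cords for 5 of 12 non-clustered genes, against 5117 of 22174 genes tested. All 66 considered, 17 members were more than 1.5 times the mean of the other KO cords and 5 were below that mean by more than the same factor. Together these were 33.3% of the protocadherins, near the 29.0% of all genes tested that lay past the same bounds. Pcdha1, Pcdha5, Pcdha8, Pcdhac1, Pcdhb1, Pcdhb2, Pcdhb16 and Pcdhgb4 are named here after seeing their values.

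The pseudogene Pcdhgb8, which the rule leaves out, followed its neighbours with 12.2 normalised CPM in KO replicate 9 and 2.64 to 4.07 in the other KO cords. The summed marker lists of KO replicate 9 lay mostly within the range of KO replicates 1 to 6 and 8. Outside it, and lower in KO replicate 9, were red blood cell markers (35.7 against 104 to 494 normalised CPM) and endothelial markers (176 against 204 to 302). So were pan-neuronal markers (3703 against 3869 to 4456). In WT cords these lists summed to 22.6 to 44.3, 200 to 253 and 4310 to 4795 in that order. For red blood cell markers KO replicate 9 thus lay within the WT range, and every other KO cord lay above it. The part of these lists in the protocadherin profile of KO replicate 9 was not tested.

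**Figure D3:**
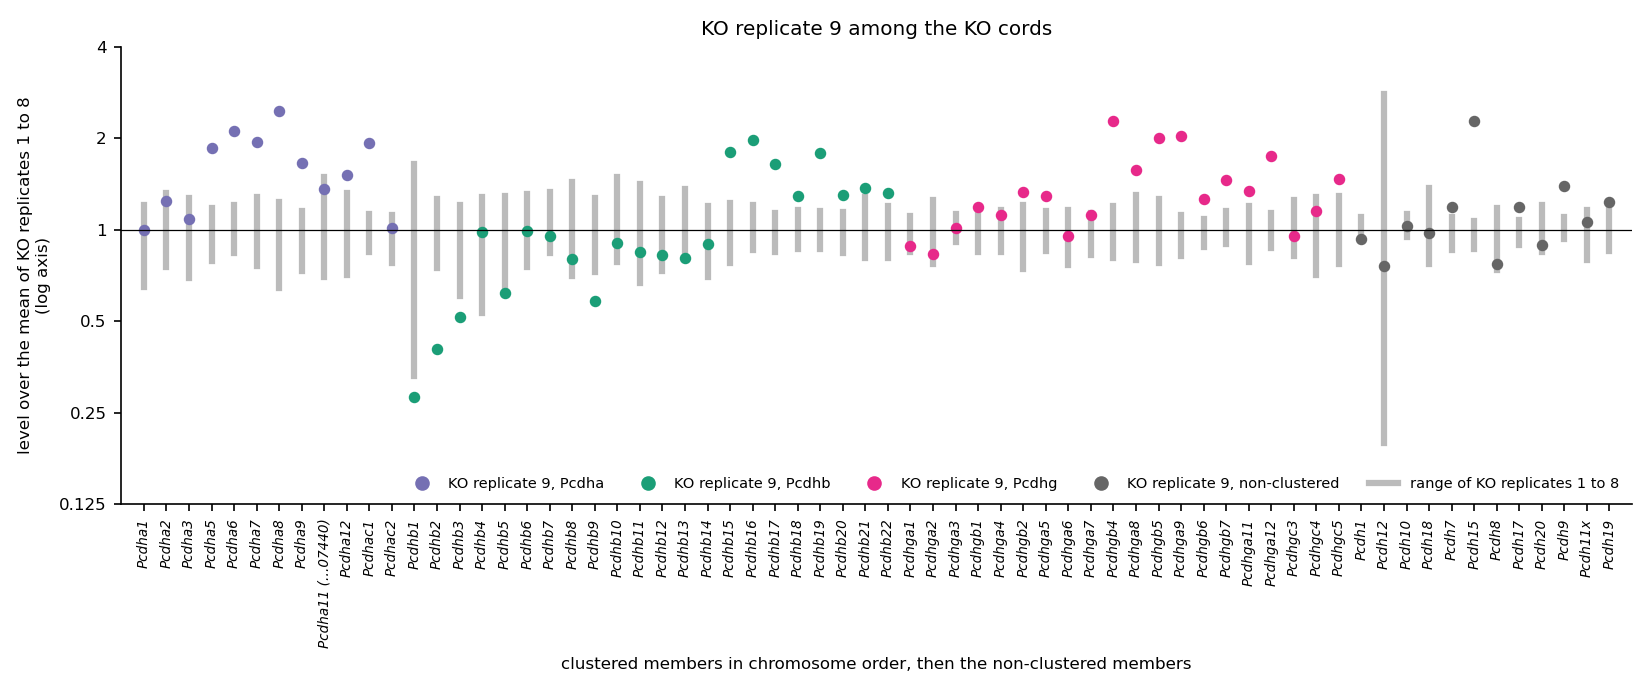
Level of each of the 66 tested protocadherins in KO replicate 9 divided by the mean of KO replicates 1 to 8 (points, log axis); grey bars span those 8 libraries. Points rise above the bars in most of Pcdha from Pcdha5 to Pcdhac1, the downstream end of Pcdhb and much of Pcdhg. They also do at Pcdh7, Pcdh9, Pcdh15, Pcdh17 and Pcdh19, and lie below 1 in the first 14 Pcdhb genes.

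In the cords loss of miR-146a left no protocadherin past the threshold. With edgeR 0 of 66 members were called, where 0% of all genes tested were called. DESeq2, which called 1.47% of the genes it could adjust, and limma also called 0 members. At an unadjusted p under 0.05 there were 6 members, 5 higher and 1 lower, where 14.3% of all genes tested passed, 7.53% higher and 6.8% lower. The 12 non-clustered genes had log2 fold changes between -0.29 and 0.06, with a median of 0.01.

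The 6 members with the smallest p were Pcdhgb6, Pcdhgb7, Pcdhb17, Pcdhgc5, Pcdhb12 and Pcdhga7. Pcdhgb6 had 24.0, 28.0 and 34.7 normalised CPM in KO cords (lowest, median, highest of 9), against 19.7, 23.6, 24.3 and 23.8 in WT cords. Its log2 fold change was 0.30 (SE 0.09, edgeR adjusted p = 0.292), and only the lowest KO cord reached into the WT range. Pcdhgb7 had 12.1, 13.3 and 19.6 in KO cords (lowest, median, highest), against 10.2, 10.4, 11.6 and 10.4 in WT cords. It was the one protocadherin whose KO and WT cords did not overlap (0.505% of all genes tested lay wholly higher in KO), with a log2 fold change of 0.41 (SE 0.12, edgeR adjusted p = 0.292) and of 0.34 without KO replicate 9.

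Pcdhb17 had 10.7, 13.5 and 20.9 normalised CPM in KO cords (lowest, median, highest), against 10.0, 10.7, 11.3 and 9.71 in WT cords, with a log2 fold change of 0.39 (SE 0.15, edgeR adjusted p = 0.294). Its highest value was KO replicate 9. Pcdhgc5, a C-type member reported to bind GABA receptors, had a log2 fold change of 0.41 (SE 0.16), Pcdhga7 of 0.21 (SE 0.10) and Pcdhb12 of -0.40 (SE 0.18), with edgeR adjusted p of 0.299, 0.34 and 0.336 in that order. Pcdhb12 was counted on 36.5% of its exonic bases because of an overlapping antisense gene.

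All 20 tested Pcdhg genes had a positive fold change in KO cords, between 0.01 and 0.42, with a median of 0.17, where the median of all genes was 0.02 and 53.1% of all genes were positive. Without KO replicate 9, 19 of 20 were positive and the median was 0.10. Limma, which weights libraries by their quality, gave 18 of 20, and leaving out WT replicate 1 gave 17 of 20. DESeq2 and the other scalings and filters gave 20 of 20. The 20 genes neighbour each other in the same array and were measured in the same libraries, so they are not independent cases.

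Summed Pcdhg was 312, 257, 278, 303, 266, 286, 295, 277 and 373 normalised CPM in KO replicates 1 to 9, against 248, 263, 266 and 251 in the WT cords. Of the KO cords, 8 of 9 were above every WT cord, KO replicate 5 only just, while KO replicate 2 lay within the WT range and KO replicate 9 was highest. The log2 ratio of the means was 0.20, and 0.15 without KO replicate 9. Summed Pcdha was 112 ± 16.1 in KO and 112 ± 7.98 in WT cords, Pcdhb 173 ± 17.1 in KO and 160 ± 9.5 in WT cords, and the non-clustered genes 942 ± 71.4 in KO and 934 ± 27.5 in WT cords (SD, n = 9 KO and 4 WT).

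Marker lists ran wider in KO than in WT cords. Astrocyte markers summed to 2058 to 7285 normalised CPM in KO cords, against 2100 to 3015 in WT cords, and microglial markers to 191 to 915 in KO cords, against 219 to 257 in WT cords. KO replicate 7 carried muscle and fibroblast transcripts, with muscle markers at 3681 normalised CPM, against 1.74 to 3.05 in the other 8 KO cords and 1.76 to 9.04 in WT cords. No marker gene of the astrocyte, microglial and muscle lists was called, where 0% of all genes tested were called. The part of these lists in the Pcdhg values was not tested.

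**Figure D4:**
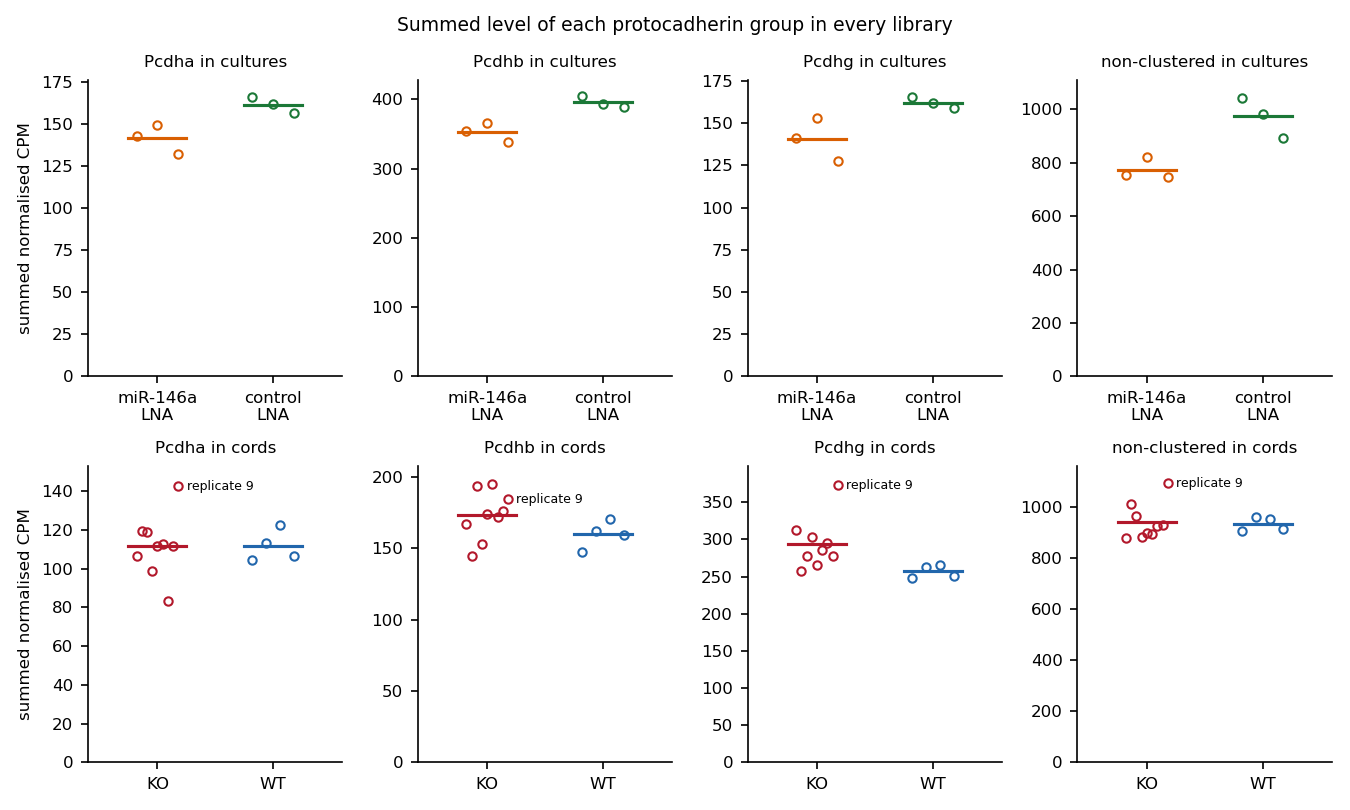
Summed normalised CPM of each protocadherin group in every library, with miR-146a LNA left of control LNA cultures (upper row) and KO left of WT cords (lower row); bars are group means. All 4 sums lie lower in every LNA culture than in every control culture, and in cords KO replicate 9 has the highest Pcdha, Pcdhg and non-clustered sums.

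The non-clustered genes that moved most in cultures were not called in cords. Pcdh11x had 29.3, 39.2 and 42.7 normalised CPM in KO cords (lowest, median, highest) and 35.0 to 38.8 in WT cords, with a log2 fold change of 0.01 (SE 0.10). Pcdh9 had 190, 209 and 282 in KO cords and 198 to 220 in WT cords (0.02, SE 0.09). Pcdh7 had 111, 136 and 153 in KO cords and 114 to 138 in WT cords (0.03, SE 0.08). Pcdh18 had 8.12, 10.2 and 14.5 in KO cords and 9.57 to 12.8 in WT cords (-0.03, SE 0.14). Each KO range covered the whole WT range. The signs of these 4 small changes turned in some alternatives.

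Pcdh1 averaged 138 ± 8.12 in KO and 136 ± 5.97 in WT cords. Pcdh10 averaged 145 ± 8.33 in KO and 148 ± 7.56 in WT cords, and Pcdh17 151 ± 13.9 in KO and 145 ± 6.43 in WT cords. Pcdh19 averaged 50.4 ± 6.51 in KO and 48.8 ± 2.47 in WT cords. Pcdh8 averaged 22.7 ± 3.39 in KO and 26.5 ± 4.7 in WT cords, and Pcdh20 9.55 ± 1.34 in KO and 10.9 ± 0.84 in WT cords. Pcdh15 averaged 33.6 ± 12.8 in KO and 32.2 ± 3.42 in WT cords, and KO replicates 1 to 8 ran from 25.5 to 31.5 there.

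Pcdh12, which marks endothelium, averaged 0.65 ± 0.51 in KO and 0.80 ± 0.33 in WT cords. Its highest cord was KO replicate 7 at 1.89, where endothelial markers summed to 404 normalised CPM, against 204 to 302 in KO replicates 1 to 6 and 8. In the clusters the genes with the highest level per length in cords were Pcdhac2, Pcdhb9 and Pcdhgc3, with log2 fold changes of -0.06 (SE 0.08), -0.09 (SE 0.17) and 0.19 (SE 0.10) in KO over WT cords.

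The difference between the LNA effect and the KO effect was tested directly, as an interaction over all 19 libraries. For each gene, cords and cultures shared 1 estimate of the spread in this fit, so its SEs and p-values are not specific to either material. The difference was called for 4 of 66 protocadherins, all non-clustered, where 1.75% of all genes tested were called, 0.497% higher and 1.25% lower. At an unadjusted p under 0.05 there were 2 members higher and 19 lower, against 5.52% and 8.68% of all genes, and the difference was above 0 for 11 of 66 members, against 45.3% of all genes. The difference of log2 fold changes, LNA minus KO, was 1.15 for Pcdh18 (SE 0.24, edgeR adjusted p = 0.0161), -0.71 for Pcdh9 (SE 0.13, adjusted p = 0.00748), -0.72 for Pcdh11x (SE 0.15, adjusted p = 0.0141) and -0.54 for Pcdh7 (SE 0.13, adjusted p = 0.0372). In this fit the material, whole cord or cultured motor neurons, and the means, KO or LNA, cannot be told apart. The count was 2 without control replicate 1, control replicate 3 or LNA replicate 1.

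None of the 84 tested genes of these pathway and adhesion lists was called in cords by edgeR, where 0% of all genes were called. The same test gave 9 at an unadjusted p under 0.05, a smaller share than the 14.3% of all genes tested. The smallest p values by list belonged to Stag2 (log2 fold change 0.14) and Dnmt3b (0.46) for promoter choice, Nckap1l (1.45) and Abi3 (0.99) in the WAVE complex, Marcks (0.31) and Ptk2b (0.81) among kinases and adaptors, and Ncstn (0.10) and Psenen (-0.12) among proteases. For the remaining lists they were Myo7a (0.19) and Cib2 (-0.11), Cdh22 (-0.28) and Cdh20 (-0.28), and Ctnnd1 (0.28) and Ctnna1 (0.23). Nckap1l and Abi3 are subunits used by microglia and by blood cells. The microglial marker ranges are given above, and their part in these 2 values was not tested.

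The member with the highest level in each group differed between the 2 materials. Levels between genes are compared here as CPM per kilobase of exon that belongs to the gene alone, in control cultures and WT cords. In Pcdha, control cultures had most of Pcdha1 at 12.0 CPM per kilobase, and WT cords had most of the C-type Pcdhac2 at 17.1. Pcdha1 itself was at 1.47 in WT cords, and Pcdhac2 at 9.60 in control cultures.

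In Pcdhb, Pcdhb11 led in control cultures at 14.3 CPM per kilobase, and Pcdhb9 led in WT cords at 5.44. In Pcdhg, Pcdhga7 led in control cultures at 9.95 and the C-type Pcdhgc3 in WT cords at 12.8. Of the non-clustered genes Pcdh7 led in control cultures at 23.6 and Pcdh9 in WT cords at 30.5. The lowest of 20 Pcdhg genes in control cultures was Pcdhgc5 at 0.083 CPM per kilobase, which stood at 2.96 in WT cords.

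Counted by gene in CPM, most genes of any kind separated the materials: all control cultures were above all WT cords for 34.9% of all genes tested and below all of them for 44.8%. Control cultures were above all WT cords for 14 of 22 Pcdhb genes and below all of them for 7. For Pcdhg this was turned round, with control cultures above all WT cords for 5 of 20 genes and below for 13. Control cultures were above for 6 and below for 5 of 12 Pcdha genes, and above for 3 and below for 7 of 12 non-clustered genes. Pcdh11x averaged 226 CPM in control cultures and 36.5 in WT cords, Pcdh1 18.8 in control cultures and 134 in WT cords. Cultures and cords differ in their cell types, so these are descriptions with no test.

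**Figure D5:**
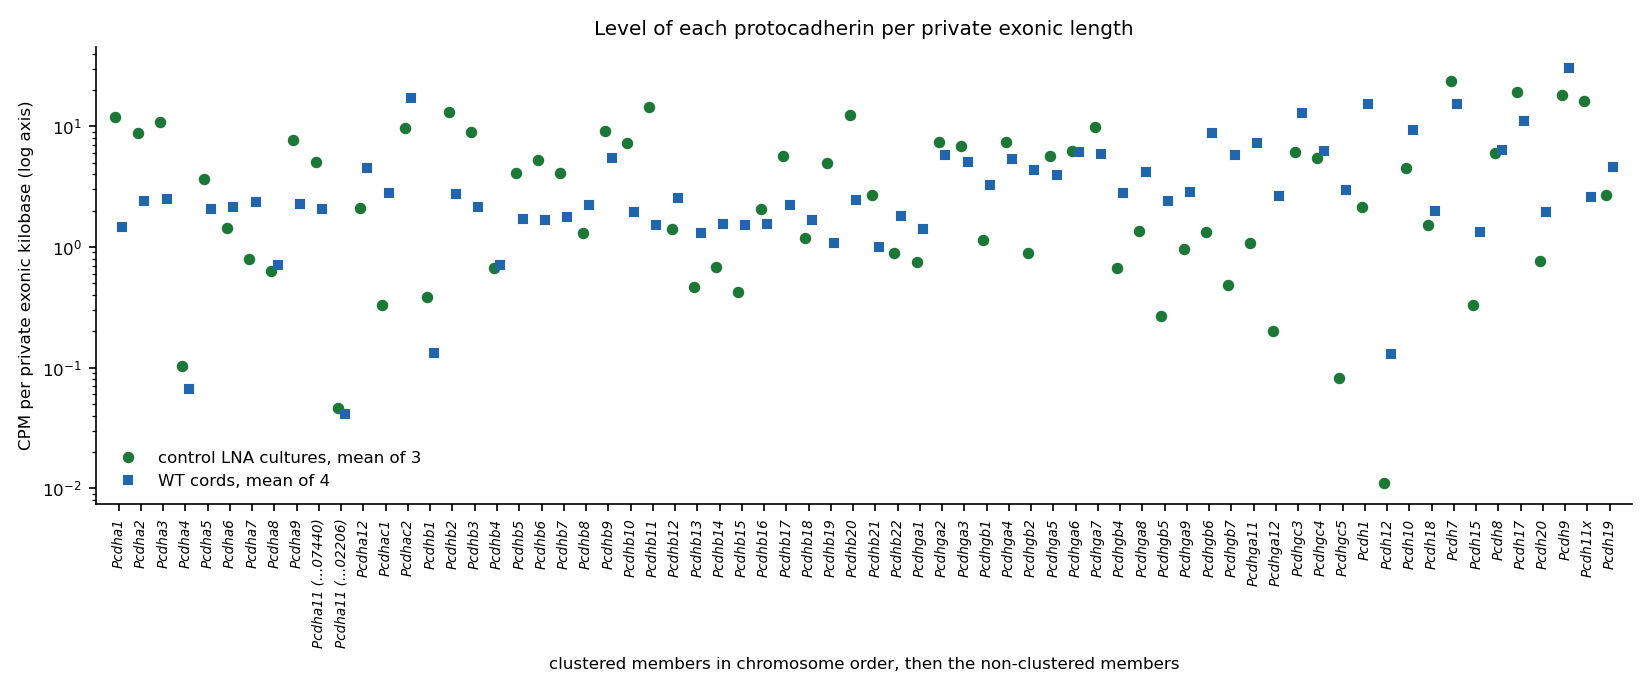
Mean level of each protocadherin in 3 control LNA cultures (circles) and 4 WT cords (squares), as CPM per kilobase of exon that belongs to that gene alone (log axis); Pcdhga10 has no such exon and is left out. Pcdhb genes run up to 14.3 in control cultures and 5.44 in WT cords, while the median Pcdhg gene is at 1.24 in control cultures and 4.70 in WT cords.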

How the data were processed

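The deposited files were gene tables of 19 libraries. According to the design text of the submitters, RNase H served to deplete ribosomal RNA, random hexamers primed reverse transcription, and reads were aligned with STAR and counted with featureCounts where unique and unambiguous. The build was GRCm38, per the submitters' processing notes. The count column the authors deposited holds raw whole-number counts per gene, the sole input to the tests. The CPM column the authors deposited matched the counts divided by their sum. The FPKM and TPM columns the authors deposited were read for the unit check alone.

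Symbols, gene types, exons and 3′ UTRs came from GENCODE M21. Symbols were found for 55227 of 55487 genes, and start and end positions agreed for 99.4%. An exonic base belongs to 1 gene alone if no other listed gene has an exon there on either strand. Sequence of chromosome 18 and protein sequence are not printed here.

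Counts were tested in edgeR 4.0.16 (R 4.3.3) by a robust quasi-likelihood F test after its default filter and TMM scaling, within the groups compared, with Benjamini-Hochberg adjustment. The interaction used all 19 libraries. Standard errors come from the fold change and the F value. Scripts were tested on simulated data. Alternatives were limma 3.58.1 (voom, quality weights), DESeq2 1.42.0, other scalings and filters, a replicate block and leaving out libraries. Cord replicate numbers follow accession order and only name libraries. No 2 libraries agreed within sampling noise (smallest chi-square per degree of freedom 6.42). At these depths 3 counts amount to 0.0758 to 0.107 CPM for a cord library and 0.0458 to 0.0738 CPM for a culture library, covering counting error alone.

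Named genes were every protocadherin called, the 6 with the smallest p where fewer than 6 were called, every non-clustered member tested and the highest per length of each cluster in each material, and of the pathway lists every gene called and the 2 with the smallest p of a list with none. The members and lists were chosen with earlier results of these data known, so counts over them are descriptions.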

Additional observations from a re-analysis of the deposited data

Results flagged for a closer look

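Among the 9 KO cords, KO replicate 9 was far above the next library for Pcdhb17 (20.9 normalised CPM), Pcdhgb7 (19.6), Pcdh15 (67.3), Pcdh9 (282) and the summed Pcdhg genes (373), by the gap to the nearest library relative to the range of the group. KO replicate 7 was far above the others for Pcdh12 (1.89 normalised CPM). In the 4 WT cords, WT replicate 1 was far below the others for Pcdhgb6 (19.7 normalised CPM). Chance sets apart about 1 in 20 groups. Over all tested members, 19 of 66 were set apart in KO cords, 17 of them by KO replicate 9, and 2 of 66 in WT cords, where 21.8% of all tested genes were set apart in KO and 5.38% in WT cords.

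The LNA effect in cultures and the KO effect in cords differed for 4 members by the edgeR interaction term, with a difference in log2 fold change of 1.15 for Pcdh18, -0.54 for Pcdh7, -0.71 for Pcdh9 and -0.72 for Pcdh11x.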

How the results depend on the processing

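Of the 9 culture calls, 6 (Pcdh11x, Pcdh9, Pcdh18, Pcdh7, Pcdha3 and Pcdha1) held in all 14 alternatives, and Pcdh8, Pcdhb11 and Pcdh1 were lost only on leaving out single libraries. DESeq2 called 14 members in cultures, and leaving out 1 library gave 6 to 11. The count of differences between the LNA and KO effect was 2 to 5 on leaving out 1 library; the cord count was 0 throughout. With the replicate number as a block, 10 culture members were called instead of 9. Same-numbered LNA and control cultures had correlations of 0.01, -0.05 and 0.01 in their deviations from the group means. With 3 libraries in each group such values cannot show whether the numbers pair cultures, and the labels do not say.

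Uncalled fold changes that turned sign were in cords Pcdh18 (0.0086 without KO replicates 7 and 9), Pcdh15 (-0.094 with limma and -0.092 without both), Pcdh9 (-0.037 with limma and -0.039 without both), Pcdh11x (-0.0016 with no filter) and Pcdhb9 (0.0024 without both), and in cultures Pcdh20 (-0.12 with limma). Leaving out 1 library turned, in cords, Pcdh18 (-0.10 to 0.055), Pcdh7 (-0.028 to 0.070), Pcdh15 (-0.13 to 0.11), Pcdh9 (-0.045 to 0.038) and Pcdh11x (-0.021 to 0.057), and in cultures Pcdh10 (-0.047 to 0.13), Pcdh17 (-0.15 to 0.037) and Pcdh20 (-0.17 to 0.31). The causes were not tested. Depth limits members with few reads, such as Pcdh12 with 344 counts over all libraries; Pcdhga10 could not be measured at any depth, since it has 0 exonic bases of its own.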
